A study of Mus musculus with 12 samples.

Results

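The comparison described here is the genotype difference in the activation response of mouse CD8 T cells: the change in a gene's expression on activation in cells that lack Ezh2, minus the change on activation in wild-type cells. It draws on all 12 of the 12 arrays of the series and on all 20962 of the 20962 genes measured, with groups taken from the sample titles, so no measured value chose its members. Activated knockout cells and naive knockout cells came from mice 4, 5 and 6, and activated wild-type cells and naive wild-type cells from mice 1, 2 and 3, so each of the 6 mice gave 1 activated and 1 naive array and each group held 3 biological replicates. All mice were males of the C57BL/6 strain aged 4 weeks. The knockout mice carried floxed alleles of Ezh2 on both chromosomes together with a Cre recombinase transgene under the CD4 promoter, which is switched on in developing T cells of the thymus, so deletion was meant for T cells alone. The labels do not say whether the wild-type mice carried a floxed allele or Cre. CD8 cells were taken from spleen and lymph nodes with antibody-coupled magnetic beads, at a stated purity above 93% by flow cytometry. Naive cells were freshly isolated, and activated cells had spent 3 days on coated antibody to CD3 with a second antibody, named anti-CD28 in the series design and anti-CD38 in the sample characteristics. No array held cells cultured without stimulation, so stimulation and culture cannot be told apart. The starting amount was about 200 ng of total RNA, which was amplified with a small-sample kit (Nugen Ovation Pico WTA) and hybridised to perfect-match (PM) mouse expression arrays from Affymetrix, and the values are log2 expression after robust multi-array averaging (RMA).

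Ezh2 is the catalytic subunit of Polycomb repressive complex 2 (PRC2), which methylates a lysine in the tail of histone H3 and keeps genes silent through cell division; Ezh1 is its less active paralogue. A naive CD8 T cell that meets antigen with costimulation leaves quiescence, divides quickly, secretes cytokines such as interleukin-2, loads cytotoxic granules and either matures into a killer effector or keeps features of memory. T-box factors, Id proteins and cytokine receptors steer that choice, and Polycomb marks lie on many genes that are switched off in naive T cells.

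A positive difference means that the response lay higher in knockout cells, through a larger rise or a smaller fall on activation, and a negative difference means that it lay lower. Differences were tested with limma's moderated interaction test over all 12 arrays and Benjamini-Hochberg adjustment over all genes, and a gene passed at an adjusted p under 0.05. Differences, responses and genotype effects are log2 values, and a difference of 1 is a factor of 2 between the responses. Expression values ran up to 10.595, and the median of all values was 0.944, so many genes lay near the floor of the scale, where folds are compressed. Array medians lay between 0.905 and 0.976, and the maximum was 10.595 on every array. RMA brings arrays to a common distribution, so these values cannot show whether an array stood apart. In bulk RNA, fewer cells of a type and less RNA per cell cannot be told apart.

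CD8 T cell markers were high in every group, with a summed linear level of 612 to 733 in activated knockout arrays and 1098 to 1233 in naive knockout arrays, against 819 to 842 in activated wild-type arrays and 1071 to 1132 in naive wild-type arrays. Markers of other cells differed between the naive groups. The 20 B-cell markers summed to 55.1 to 68 in activated knockout and 166 to 203 in naive knockout arrays, against 62 to 64.7 in activated wild-type and 363 to 386 in naive wild-type arrays. The 12 dendritic-cell markers summed to 54.2 to 69.4 in activated knockout and 65.9 to 93 in naive knockout arrays, against 56.8 to 64.3 in activated wild-type and 128 to 148 in naive wild-type arrays. The 23 myeloid markers, 10 of them under the median of all values on every array, summed to 43 to 46.9 in activated knockout and 45.8 to 47.3 in naive knockout arrays, against 46.7 to 47.4 in activated wild-type and 56.1 to 64.7 in naive wild-type arrays. Naive wild-type arrays had the highest sums of all 3 lists. Linear sums weigh the brightest members most. Gene by gene, 6 of the 20 B-cell, 2 of the 12 dendritic-cell and 4 of the 23 myeloid markers were lower in naive knockout cells. None was higher, and the median effects were -0.21, -0.22 and -0.09. Over all genes 0.468% were lower and 0.62% higher in naive knockout cells. The part of these cells in the differences below was not tested.

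Ezh2 itself read 2.72, 3.59 and 3.78 in activated knockout cells and 1.95, 2.14 and 2.18 in naive knockout cells, against 5.56, 5.26 and 5.35 in activated wild-type cells and 2.31, 2.16 and 2.42 in naive wild-type cells. Activated knockout arrays lay below all activated wild-type arrays, with a knockout effect of -2.02, while the naive groups had an effect of -0.20. Activation raised the Ezh2 probe set by 1.27 in knockout cells and by 3.09 in wild-type cells, and the responses differed by -1.82 ± 0.28 (SE, adjusted p = 0.00371). Without moderated variances the Ezh2 difference did not pass. The position of the probe set relative to the floxed exons was not given, so what it reports of the deletion is not known. Ezh1 read a response of -0.56 in knockout and -0.05 in wild-type cells, a difference that did not pass (adjusted p = 0.173).

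In total 182 genes, or 0.868% of those tested, responded differently in the 2 genotypes. The response lay higher in knockout cells for 127 genes (0.606%) and lower for 55 (0.262%), and 2057 genes (9.81%) had an unadjusted p under 0.05. By comparison, activation moved 5595 genes (26.7%) in knockout cells, with 15.8% higher and 10.9% lower, and 5612 genes (26.8%) in wild-type cells, with 14.8% higher and 11.9% lower. Among the higher genes 77 differed by 2-fold or more, with a median of 1.11 and a largest difference of 2.67, and among the lower genes 19 did, with a median size of 0.86 and a largest size of 3.46. The responses of the 3 knockout mice did not overlap those of the 3 wild-type mice for any of the 182 genes. Over all genes, 8.31% did not overlap with the knockout above and 6.31% with the knockout below. The 182 genes were chosen by this same difference on the same arrays, so the lack of overlap adds no independent evidence. In every one of the 12 fits that leave out 1 array, 97 of the 182 genes still passed, 80 of them higher and 17 lower. Fitted without moderated variances, 52 genes passed, 49 of them among the 182.

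**Figure D1:**
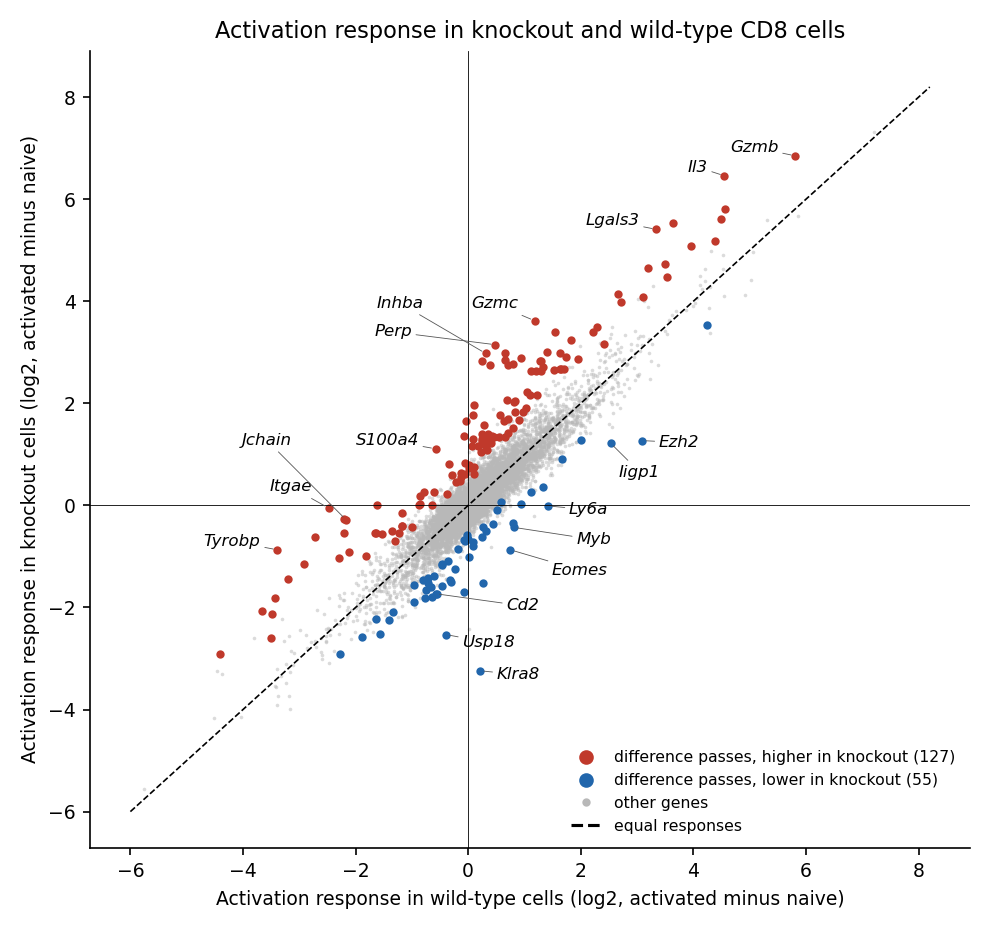
Activation response in knockout cells (vertical axis, log2) against the response in wild-type cells (horizontal axis, log2) for all genes tested, with the dashed line marking equal responses. The 127 genes with a higher response in knockout cells lie above the line and the 55 with a lower response lie below it.

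The responses took several forms. Of the 127 higher genes, 62 rose on activation in both genotypes and 29 rose in knockout cells without passing in wild-type cells, while 22 fell in both genotypes and 12 fell in wild-type cells without passing in knockout cells. The calcium-binding protein gene S100a4 and Mtss1, which encodes a membrane and actin regulator, rose in knockout cells and fell in wild-type cells. Of the 55 lower genes, 22 fell in both genotypes, 18 fell in knockout cells only by the test, 6 rose in wild-type cells without passing in knockout cells, and 5 rose in both. Opposite calls, a fall in knockout and a rise in wild-type cells, came from Eomes, Myb, Il2rb and the unnamed transcript 9330161A08Rik. Comparisons within a genotype share arrays with the difference itself, so these counts describe where each gene moved and add no independent evidence.

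Knockout and wild-type cells were apart after activation for some genes and before it for others. Of the 127 higher genes, 69 lay above wild type in activated knockout cells with no call in naive cells, 35 lay below wild type in naive knockout cells with no call after activation, and 10 had both. The rest were Chst11, higher in both states, Igkv8-30, lower in both, and 11 genes with no call in either. The 10 genes with both calls were Hmgcs1, Fam3c, Spry2, Cd81, Ehd1, Id2, Ccl5, Lgals3, Cd24a and Adm. Among the 55 lower genes, 22 were higher in naive knockout cells with no call after activation, 21 were lower in activated knockout cells with no call before it, Eomes, Arsb, Cxcr3 and Pde2a were higher in knockout cells in both states, and 8 had no call in either. Over all genes, 277 (1.32%) differed between the genotypes in activated cells, 0.949% higher and 0.372% lower in the knockout, and 228 (1.09%) in naive cells, 0.62% higher and 0.468% lower.

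**Figure D2:**
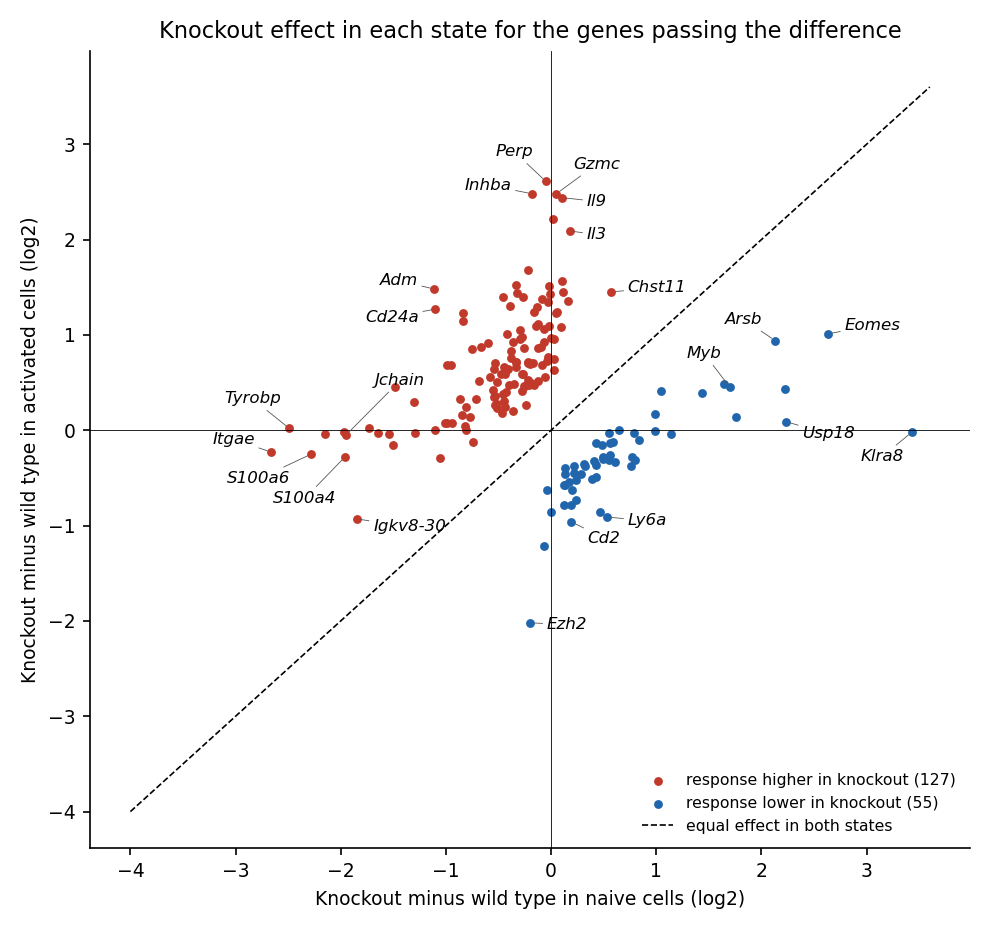
Knockout effect in activated cells (vertical axis, log2, knockout minus wild type) against the effect in naive cells (horizontal axis, log2) for the 182 genes that passed. Points spread along the vertical axis differed after activation, as Inhba did (2.48 and -0.18), and points spread along the horizontal axis differed before it, as Klra8 did in naive cells (3.43).

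The response of several genes of secreted factors lay higher in knockout cells, although 1 of them, Ccl5, fell on activation in both genotypes. Of 28 cytokine genes measured, 6 had a higher response and none a lower one. Of 13 chemokine genes 3 were higher and none lower. The medians were 0.12 and 0.20 beside 0.01 over all genes. Over all genes 0.606% were higher and 0.262% lower, and the list counts below are read beside these shares. The 6 passing members of the cytokine list were Adm, Il9, Il3, Il2, Csf2 and Tnfsf11, and the 3 chemokine genes were Ccl5, Ccl1 and Ccl9. Adm, the list's highest member, encodes a vasodilator peptide and not a classical cytokine, but it is included in the list counts. Counts of 6 and 3 higher genes were found in each fit without 1 array, but without naive knockout replicate 4 there were also 1 lower cytokine gene and 2 lower chemokine genes. With antisense-marked and cross-hybridising probe sets left out, 3 of 15 cytokine genes passed, with a median of -0.04, and none of 5 chemokine genes did, with a median of 0.13. Without moderated variances 3 cytokine genes passed.

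Inhba, which encodes the activin A subunit, a secreted protein of the TGF-beta superfamily, had the smallest p of the named genes. It read 3.81, 3.87 and 3.63 in activated knockout cells and 0.83, 0.74 and 0.80 in naive knockout cells, against 1.3, 1.01 and 1.55 in activated wild-type cells and 1.07, 0.83 and 1.02 in naive wild-type cells. Only the activated knockout arrays were raised, the other 3 groups lay together, and no activated knockout array overlapped another group. The response was 2.98 in knockout and 0.31 in wild-type cells, where it did not pass, a difference of 2.67 ± 0.17 (SE, adjusted p = 3.56e-06), or 6.35-fold. It was the only passing member among 22 genes of the TGF-beta and activin pathway, whose median was 0.10.

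Interleukin-2, the main growth factor of activated T cells, read 7.35, 7.03 and 6.95 in activated knockout cells and 1.59, 1.29 and 1.87 in naive knockout cells, against 5.50, 5.25 and 5.56 in activated wild-type cells and 1.70, 1.78 and 1.94 in naive wild-type cells. The naive groups overlapped near the floor, and every activated knockout array lay above every activated wild-type array. Il2 rose by 5.53 in knockout and 3.63 in wild-type cells, a difference of 1.90 ± 0.20 (SE, adjusted p = 0.000138). Interleukin-3, a growth factor for haematopoietic progenitors and mast cells that activated T cells release, read 7.44, 7.15 and 7.47 in activated knockout cells and 0.86, 1.01 and 0.82 in naive knockout cells, against 5.28, 5.27 and 5.23 in activated wild-type cells and 0.64, 0.88 and 0.62 in naive wild-type cells. Its arrays separated in the same way, with a difference of 1.91 ± 0.15 (SE, adjusted p = 6.83e-06). Interleukin-9, a mast-cell growth factor made by some helper and cytotoxic T cells, read 3.53, 3.72 and 4.64 in activated knockout cells and 0.88, 1.02 and 1.02 in naive knockout cells, against 1.5, 1.54 and 1.53 in activated wild-type cells and 0.90, 0.78 and 0.95 in naive wild-type cells. Activated wild-type arrays were just above naive levels, and all activated knockout arrays were well above them, a difference of 2.34 ± 0.28 (SE, adjusted p = 0.000363).

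Csf2, the gene of the myeloid growth factor GM-CSF, differed by 1.23 ± 0.18 (SE, adjusted p = 0.0032) and Tnfsf11, the gene of the osteoclast and dendritic-cell factor RANKL, by 1.12 ± 0.16 (SE, adjusted p = 0.00151). Adm encodes adrenomedullin, a vasodilator peptide, and read 4.83, 4.69 and 4.77 in activated knockout cells and 1.88, 2.16 and 1.71 in naive knockout cells, against 2.91, 3.86 and 3.08 in activated wild-type cells and 2.86, 2.83 and 3.39 in naive wild-type cells. It was higher in knockout cells after activation and lower before it, with a difference of 2.59 ± 0.29 (SE, adjusted p = 0.000254). Ccl5, a chemokine of memory and effector CD8 cells, fell on activation in both genotypes, with responses of -0.54 in knockout and -2.21 in wild-type cells, a difference of 1.67 ± 0.15 (SE, adjusted p = 3e-05). The knockout cells started lower in the naive state (-0.99) and ended higher after activation (0.68). Ccl1, a chemokine for the receptor Ccr8, and Ccl9, a chemokine for Ccr1, differed by 1.47 (adjusted p = 0.000337) and 1.25 (adjusted p = 0.000838).

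The differences of several other effector genes did not pass. Ifng, the gene of interferon gamma, rose by 5.59 in knockout and 5.30 in wild-type cells, a difference of 0.29 ± 0.39 (SE, adjusted p = 0.891). Tnf had responses of 2.52 and 1.70 (difference adjusted p = 0.122), Ccl3 of 7.31 and 7.21 (adjusted p = 0.928) and Ccl4 of 4.42 and 5.02 (adjusted p = 0.538) in knockout and wild-type cells. Il2ra, the high-affinity subunit of the interleukin-2 receptor, rose by 5.67 in knockout and 5.86 in wild-type cells (adjusted p = 0.818). None of the 34 cytokine receptor and signalling genes passed, although 10 of them had an unadjusted p under 0.05, against 9.81% of all genes. The median of the 34 was -0.13, and the members farthest from 0 were Il15ra (-0.82, adjusted p = 0.0748) and Ifngr1 (-0.67, adjusted p = 0.0774).

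**Figure D3:**
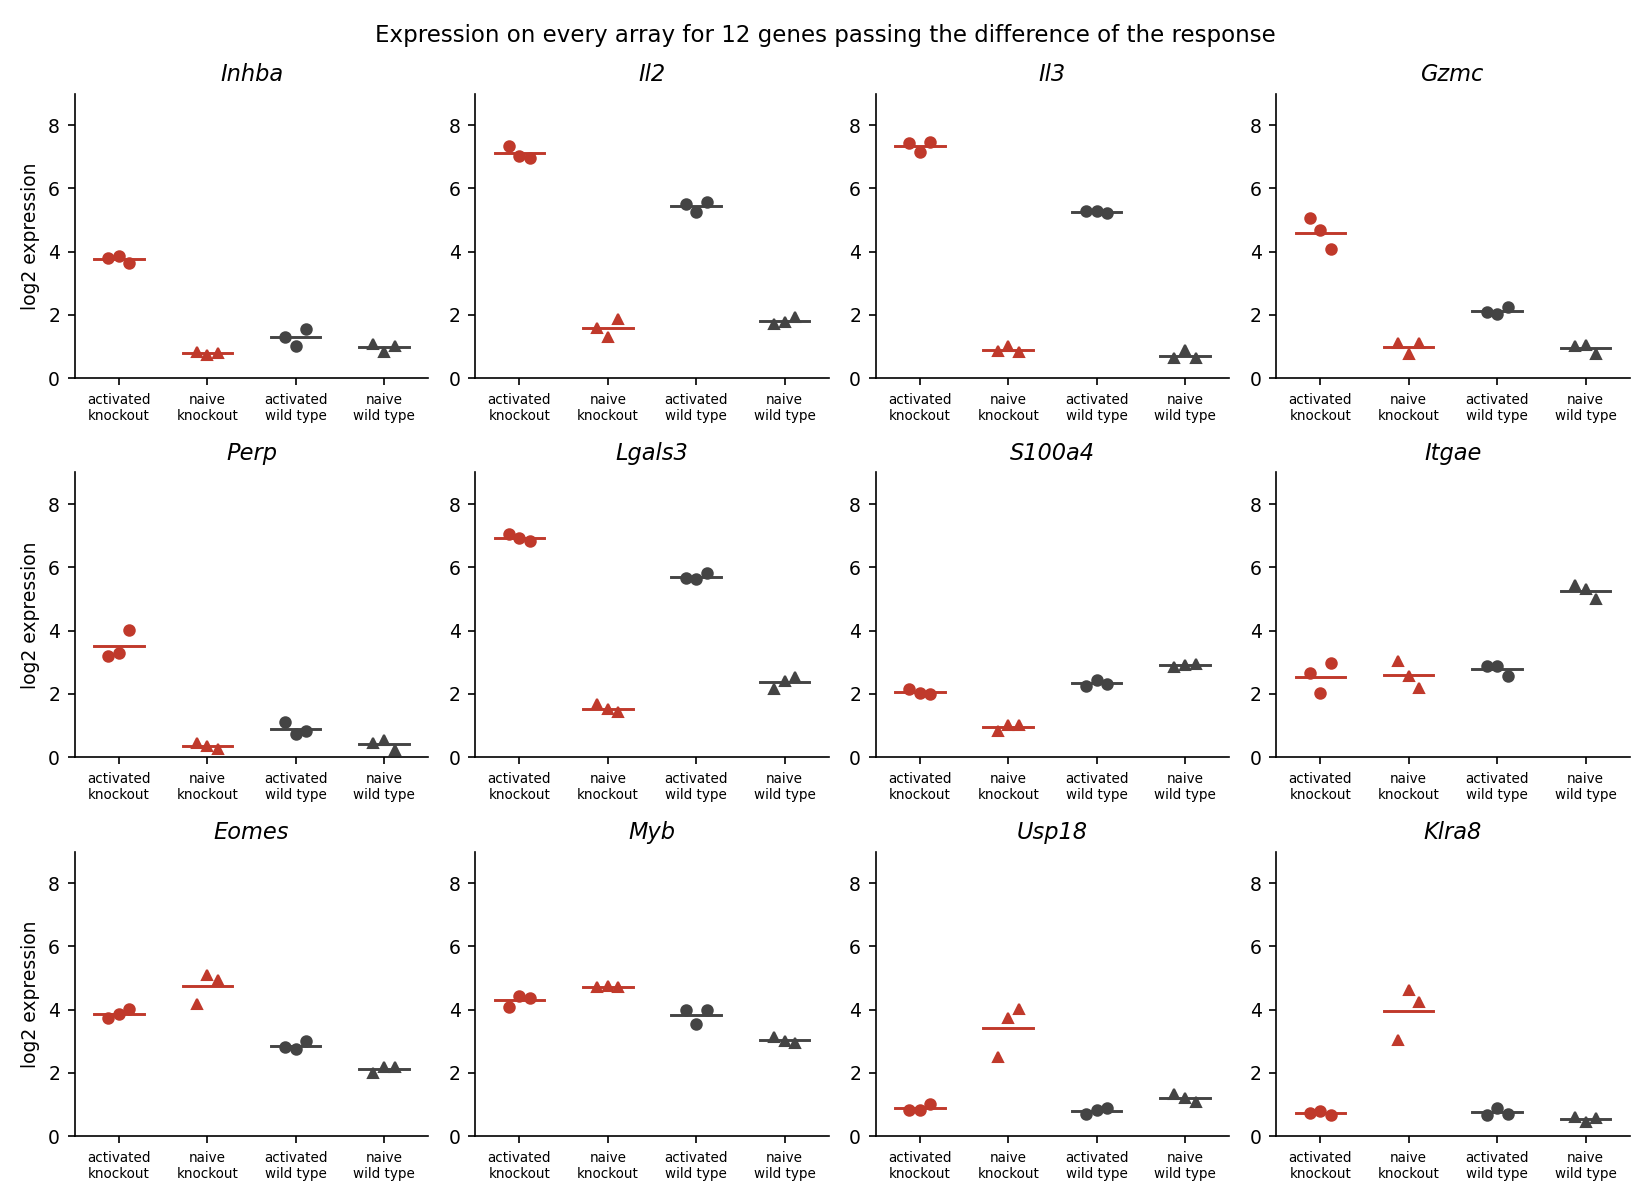
Log2 expression of 12 genes on every array, with activated knockout, naive knockout, activated wild-type and naive wild-type arrays from left to right in each panel and a line at each group's mean. Inhba, Il2, Il3, Gzmc and Perp were set apart in activated knockout cells, Itgae and S100a4 in naive cells, and Eomes, Myb, Usp18 and Klra8 were highest in naive knockout cells.

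Promoter sequence from RefSeq (build GRCm38.p6) was at hand for 8 of the 9 cytokine and chemokine genes that passed. The windows are 300 bases long, most of them before the transcript start, and were searched on both strands for TGANTCA, the core of the AP-1 site through which T-cell activation signals act on many cytokine genes. Matches were found for Il9 and Ccl9, 2 of the 8, while 7.81% of all 32851 windows held one. Their windows, from chr13:56482208-56482507 on the minus strand and chr11:83578587-83578886 on the minus strand, are shown 5′ to 3′ because they carry the only matches among these genes, with the match in capitals.
Il9: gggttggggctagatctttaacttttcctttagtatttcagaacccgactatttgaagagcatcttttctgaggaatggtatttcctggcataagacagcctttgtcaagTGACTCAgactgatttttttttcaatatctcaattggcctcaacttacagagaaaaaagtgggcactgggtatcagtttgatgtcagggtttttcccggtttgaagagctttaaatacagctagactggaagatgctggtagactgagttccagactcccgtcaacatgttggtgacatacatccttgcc
Ccl9: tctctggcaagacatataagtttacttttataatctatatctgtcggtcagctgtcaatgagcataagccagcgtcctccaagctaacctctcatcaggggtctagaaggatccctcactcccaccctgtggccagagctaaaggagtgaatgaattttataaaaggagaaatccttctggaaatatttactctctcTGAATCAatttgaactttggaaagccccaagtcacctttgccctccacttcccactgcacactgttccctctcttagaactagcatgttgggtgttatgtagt
The first base of the match lay at position -140 from the start of Il9 and -53 from that of Ccl9. A match describes the letters of the window and shows no binding.

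Cytotoxic genes were split. Of 21 granule genes, 4 had a higher response and none a lower one, against 0.606% and 0.262% of all genes, and the median was 0.03. With antisense-marked and cross-hybridising probe sets left out 1 of 12 passed, and without moderated variances 1 of 21. Gzmc, which encodes granzyme C, a serine protease of late killer cells, read 5.05, 4.67 and 4.09 in activated knockout cells and 1.10, 0.76 and 1.10 in naive knockout cells, against 2.09, 2.03 and 2.24 in activated wild-type cells and 1.00, 1.06 and 0.76 in naive wild-type cells. Its activated knockout arrays lay clear of the other groups, with a rise of 3.62 in knockout and 1.18 in wild-type cells and a difference of 2.44 ± 0.26 (SE, adjusted p = 0.000138). Gzmb, the gene of the main killer protease granzyme B, rose steeply in both genotypes, by 6.85 in knockout and 5.81 in wild-type cells. That difference of 1.04 ± 0.17 (SE, adjusted p = 0.00524) came with a naive effect of -0.71 and an activated effect of 0.33. Serpinb9 and Serpinb9b encode serpins, of which the Serpinb9 product inhibits granzyme B, and they differed by 0.97 ± 0.16 (SE, adjusted p = 0.00661) and 0.62 ± 0.12 (SE, adjusted p = 0.0291). Serpinb9b passed no longer in 8 of the 12 fits without 1 array (highest adjusted p = 0.0872) or with the mouse as a block (adjusted p = 0.0879), and without antisense-marked and cross-hybridising probe sets Serpinb9 read 1.10 (adjusted p = 0.0682). Prf1, which encodes the pore-forming protein perforin, had a response of 0.90 in knockout and 0.10 in wild-type cells, and Gzma one of -3.91 in knockout and -3.39 in wild-type cells. Neither difference passed (adjusted p = 0.225 and 0.713).

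Perp, a p53 target that encodes a membrane protein of cell junctions and apoptosis, was near the floor outside activated knockout cells. It read 3.20, 3.29 and 4.01 in activated knockout cells and 0.43, 0.35 and 0.27 in naive knockout cells, against 1.11, 0.73 and 0.82 in activated wild-type cells and 0.45, 0.55 and 0.22 in naive wild-type cells. The lowest activated knockout value exceeded the highest activated wild-type value, and the difference was 2.66 ± 0.24 (SE, adjusted p = 3.59e-05). Other genes of that list did not share it: 2 of 25 p53 targets and cell-cycle inhibitors passed, with a median of 0.00. The second was Sesn1, a stress sensor gene, at 0.68 ± 0.14 (SE, adjusted p = 0.0266), which passed no longer with the mouse as a block (adjusted p = 0.0848) and read -0.15 (adjusted p = 0.866) with another probe set. Cdkn1a, the gene of the cell-cycle inhibitor p21, rose by 4.11 in knockout and 4.55 in wild-type cells (adjusted p = 0.718), and Cdkn2a, a Polycomb target that encodes p16 and p19 proteins, had responses of -0.04 in knockout and -0.11 in wild-type cells (adjusted p = 0.947).

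Calcium-binding S100 proteins, membrane-binding annexins and sugar-binding galectins are typical of effector and memory T cells and also of myeloid cells. Of 17 genes of this group, 8 had a higher response and none a lower one, with a median of 0.65. Over all genes 0.606% were higher and 0.262% lower. Between 6 and 8 of the 17 were higher over the fits without 1 array. Besides these, 1 gene was lower without naive knockout replicate 4 and 1 without naive wild-type replicate 2. With antisense-marked and cross-hybridising probe sets left out, 2 of 7 passed, with a median of 0.30. The median was 0.39 for the mean of a gene's probe sets, and without moderated variances 3 genes passed. On activation 10 of the 17 rose and 4 fell in knockout cells, against 7 that rose and 5 that fell in wild-type cells. Over all genes 15.8% rose and 10.9% fell in knockout cells, and 14.8% rose and 11.9% fell in wild-type cells. In naive cells 6 of the 17 were lower in the knockout, against 0.468% of all genes. The myeloid, dendritic-cell and B-cell marker sums given above were also lower in naive knockout than in naive wild-type arrays, and their part in these values was not tested.

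Lgals3, the gene of galectin-3, read 7.06, 6.93 and 6.83 in activated knockout cells and 1.67, 1.51 and 1.42 in naive knockout cells, against 5.67, 5.63 and 5.83 in activated wild-type cells and 2.15, 2.42 and 2.54 in naive wild-type cells. Knockout arrays were the lowest before activation and the highest after it, with no overlap in either state, and the difference was 2.07 ± 0.16 (SE, adjusted p = 6.83e-06). S100a6 read 4.42, 4.23 and 4.11 in activated knockout cells and 1.34, 1.54 and 1.64 in naive knockout cells, against 4.37, 4.57 and 4.56 in activated wild-type cells and 3.80, 3.96 and 3.6 in naive wild-type cells. Here the activated groups lay close, with an effect of -0.25, and the naive knockout arrays were lower, with an effect of -2.28, giving a difference of 2.03 ± 0.16 (SE, adjusted p = 9.6e-06). S100a4 read 2.14, 2.03 and 2.00 in activated knockout cells and 0.82, 1.01 and 1.01 in naive knockout cells, against 2.26, 2.43 and 2.31 in activated wild-type cells and 2.86, 2.92 and 2.95 in naive wild-type cells. It rose by 1.11 in knockout cells, against a response of -0.58 in wild-type cells, which was a fall, with a difference of 1.69 ± 0.12 (SE, adjusted p = 6.83e-06). Anxa2 followed at 1.23 ± 0.18 (SE, adjusted p = 0.00234), although other probe sets of Anxa2 gave less, with 0.39 for their mean (adjusted p = 0.219). The remaining 4 were Lgals1 (1.07), S100a11 (0.79), Anxa5 (0.79) and S100a10 (0.76). With the mouse as a block Anxa5 and S100a10 did not pass (adjusted p = 0.0902 and 0.0585), and they were lost in 9 and 7 of the 12 fits without 1 array (highest adjusted p = 0.0853 and 0.0847).

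Of 21 integrins and adhesion genes, 5 had a higher response and 1 a lower one, against 0.606% and 0.262% of all genes. The median was 0.15, 15 did not pass, and over the fits without 1 array 4 to 6 were higher. On activation more of the 21 fell than rose in both genotypes, with 6 that rose and 11 that fell in knockout cells, against 4 and 9 in wild-type cells. With antisense-marked and cross-hybridising probe sets left out, 2 of 13 were higher and 1 lower, with a median of 0.03, and without moderated variances none of the 21 passed. Itgae encodes CD103, the integrin chain that holds T cells in epithelium, and read 2.65, 2.02 and 2.96 in activated knockout cells and 3.03, 2.56 and 2.20 in naive knockout cells, against 2.89, 2.89 and 2.55 in activated wild-type cells and 5.44, 5.32 and 5.00 in naive wild-type cells. Naive wild-type arrays stood alone at the top, and the other 3 groups overlapped. The probe set fell by 2.48 in wild-type cells and had a response of -0.05 in knockout cells, a difference of 2.43 ± 0.31 (SE, adjusted p = 0.000865). A second probe set of Itgae, the one left when cross-hybridising and antisense-marked probe sets are removed, gave 0.83 (adjusted p = 0.0637). CD103 is also found on a dendritic-cell subset, and the dendritic-cell sum was likewise highest in naive wild-type arrays. The part of dendritic cells in the Itgae values was not tested.

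Cd24a, the gene of a heat-stable adhesion antigen of thymocytes and B cells, read 3.94, 4.13 and 4.36 in activated knockout cells and 0.83, 1.66 and 1.71 in naive knockout cells, against 2.99, 3.01 and 2.64 in activated wild-type cells and 2.46, 2.90 and 2.14 in naive wild-type cells. Knockout arrays were below wild type before activation and above it after, a difference of 2.37 ± 0.31 (SE, adjusted p = 0.000946). Cd81, which encodes a tetraspanin, differed by 1.54 ± 0.21 (SE, adjusted p = 0.00118), and Itga4, the alpha chain of the integrin VLA-4, by 1.20 ± 0.19 (SE, adjusted p = 0.00395). Cd9, another tetraspanin gene, differed by 1.05 ± 0.21 (SE, adjusted p = 0.0295) but was lost in 5 of the 12 fits without 1 array (highest adjusted p = 0.0855). The 1 lower gene was Itgal, the alpha chain of LFA-1, at -0.56 ± 0.12 (SE, adjusted p = 0.0467), lost in 10 of the 12 fits (highest adjusted p = 0.126) and with the mouse as a block (adjusted p = 0.0829).

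Cholesterol synthesis is switched on in dividing T cells to build membrane. Of 32 genes of cholesterol and fatty acid synthesis, 4 had a higher response and none a lower one, with a median of 0.19. Over all genes 0.606% were higher and 0.262% lower. Hmgcs1, which encodes an early enzyme of the mevalonate pathway, differed by 0.97 ± 0.12 (SE, adjusted p = 0.000374). It passed in all 12 fits without 1 array. Idi1, an isopentenyl-diphosphate isomerase gene (1.11), and Fdft1, the squalene synthase gene (1.04), were lost in 8 and 11 of the 12 fits (highest adjusted p = 0.0872 and 0.135). Of the 4, 3 are described here. With the mouse as a block Fdft1 did not pass (adjusted p = 0.0825). The list held 1 passing gene without naive wild-type replicate 1, activated wild-type replicate 2 or activated wild-type replicate 3. Without moderated variances 1 of the 32 passed, and with the mouse as a block 2. Idi2, a paralogue of Idi1 that lies outside the list of 32, read 3.96, 2.94 and 3.46 in activated knockout cells and 0.70, 0.46 and 0.66 in naive knockout cells, against 1.15, 1.21 and 1.35 in activated wild-type cells and 0.51, 0.71 and 0.54 in naive wild-type cells. It was near the floor outside activated knockout cells and differed by 2.20 ± 0.25 (SE, adjusted p = 0.000315).

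**Figure D4:**
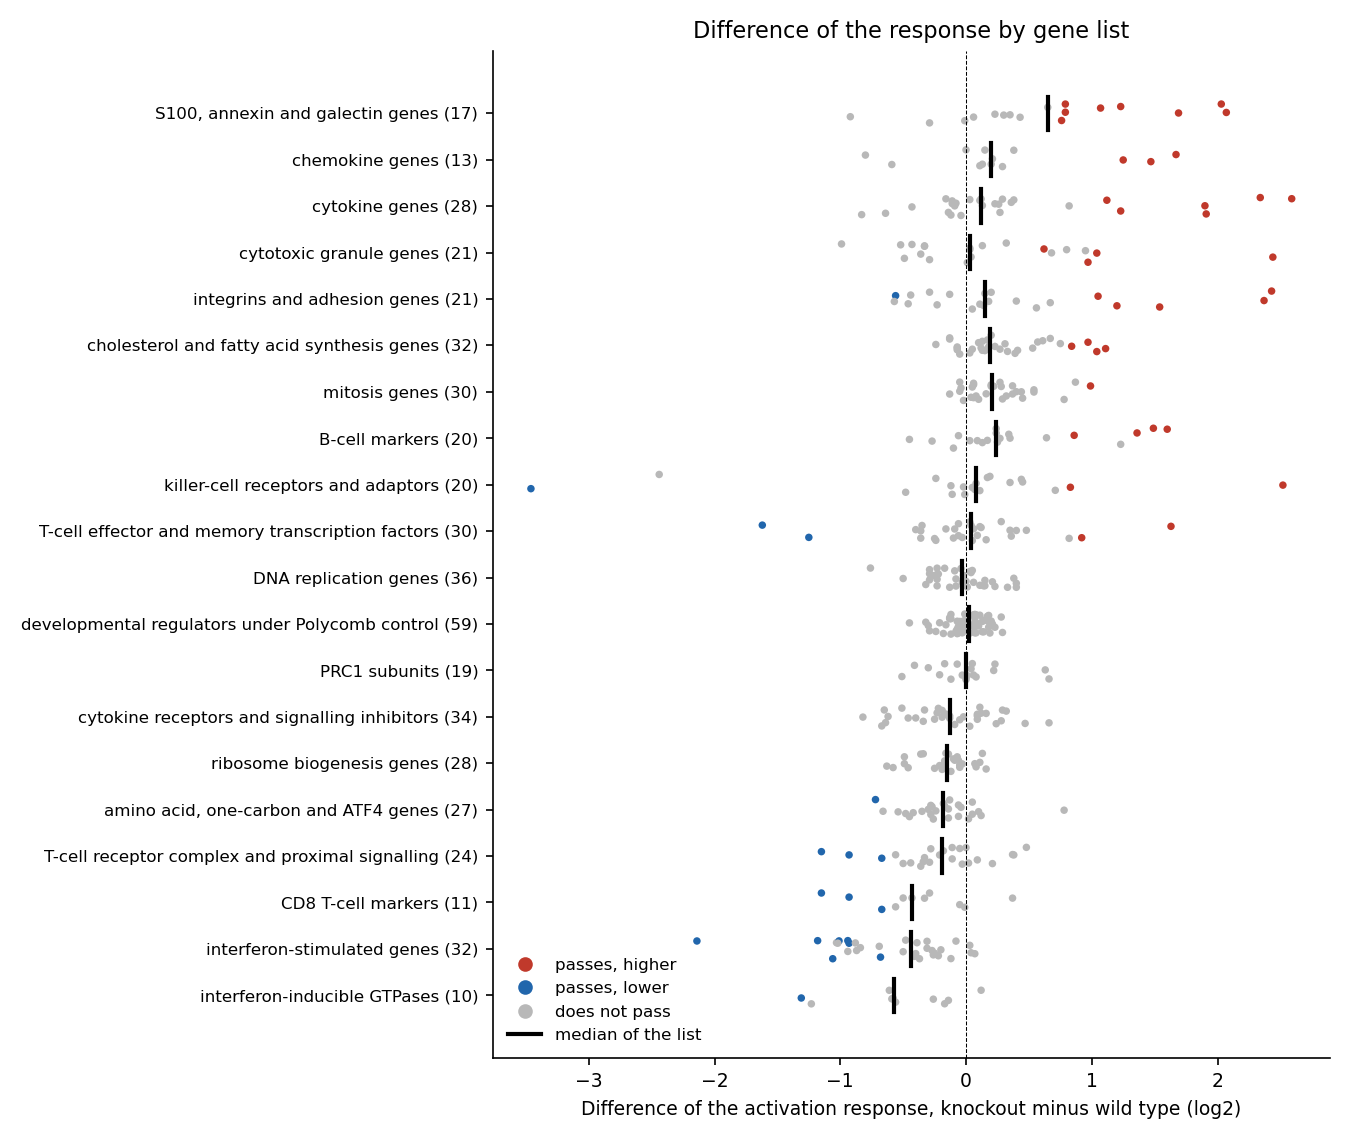
Difference of the activation response (horizontal axis, log2, knockout minus wild type) for each measured member of 20 gene lists, with coloured points for genes that passed and a black bar at each list's median. The S100, annexin and galectin list has a median of 0.65. The interferon-inducible GTPases have one of -0.57, the interferon-stimulated list one of -0.44 and the CD8 T-cell markers one of -0.43. Most other medians lie near 0.

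Interferon-stimulated genes, which encode antiviral effectors and sensors induced by type I interferon, moved the other way. Of 32 measured, none had a higher response and 7 a lower one in knockout cells, against 0.606% higher and 0.262% lower over all genes. The median was -0.44, and 29 of the 32 differences lay below 0. On activation 27 fell in knockout cells against 18 in wild-type cells. Before activation 12 were higher in naive knockout than in naive wild-type cells, while none passed after activation. Over all genes 10.9% fell in knockout and 11.9% in wild-type cells, and 0.62% were higher in naive knockout cells. The 7 lower genes were Usp18, Oas1a, Irf7, Oasl2, Rsad2, Zbp1 and Oas2.

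Usp18, which encodes a protease that removes the ubiquitin-like protein ISG15 and damps interferon signalling, read 0.82, 0.83 and 1.02 in activated knockout cells and 2.5, 3.74 and 4.02 in naive knockout cells, against 0.69, 0.83 and 0.88 in activated wild-type cells and 1.32, 1.19 and 1.07 in naive wild-type cells. All naive knockout arrays lay above all naive wild-type arrays and the activated groups overlapped. The response was -2.53 in knockout and -0.40 in wild-type cells, a difference of -2.14 ± 0.37 (SE, adjusted p = 0.00962). Irf7, the transcription factor that amplifies the interferon response, differed by -1.06 ± 0.17 (SE, adjusted p = 0.00521) and Oasl2, a member of the oligoadenylate synthetase family, by -1.01 ± 0.18 (SE, adjusted p = 0.0143). Oas1a, an oligoadenylate synthetase gene, differed by -1.18 ± 0.22 (SE, adjusted p = 0.0166) and did not pass without naive wild-type replicate 1 or without activated wild-type replicate 2 (highest adjusted p = 0.0554). Rsad2, the gene of the antiviral protein viperin (-0.94), Zbp1, a sensor of Z-form nucleic acid (-0.93), and Oas2 (-0.68) were lost in 6, 6 and 8 of the 12 fits (highest adjusted p = 0.0706, 0.0651 and 0.095).

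The number of interferon-stimulated genes that passed rested on single arrays. It was 3 without naive wild-type replicate 1 or activated wild-type replicate 2, 4 without activated wild-type replicate 1, and 12 without naive knockout replicate 4, with list medians between -0.64 and -0.34. Without moderated variances none of the 32 passed, and with antisense-marked and cross-hybridising probe sets left out 3 of 20 did, with a median of -0.37. Among 10 interferon-inducible GTPases, which defend against intracellular microbes, the median was -0.57 and 1 gene, Iigp1, passed. Iigp1 rose by 1.22 in knockout and 2.53 in wild-type cells, a difference of -1.31 ± 0.19 (SE, adjusted p = 0.00227), and without naive knockout replicate 4 the list held 4 passing genes.

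RefSeq promoter windows were at hand for 4 of the 7 interferon-stimulated genes that passed. The core of the interferon-stimulated response element bound by interferon regulatory factors, GAAA repeated after a gap of 2 bases, was found on either strand in the windows of Oas1a and Rsad2, against 3.44% of all windows. It was not in those of Irf7 and Oasl2, which says only that these letters are not in that window. The windows of the genes with a match, chr5:120907476-120907775 and chr12:26456403-26456702, both on the minus strand of GRCm38.p6, are shown 5′ to 3′ with the matches in capitals, since they show the element beside 2 of the lower genes. The 2 matches of Oas1a overlap, and that of Rsad2 reads on the opposite strand. TTCNNNGAA, the interferon-gamma activated site, was in 1 of the 4 windows, that of Oas1a, and in 8.3% of all windows, and is not capitalised.
Oas1a: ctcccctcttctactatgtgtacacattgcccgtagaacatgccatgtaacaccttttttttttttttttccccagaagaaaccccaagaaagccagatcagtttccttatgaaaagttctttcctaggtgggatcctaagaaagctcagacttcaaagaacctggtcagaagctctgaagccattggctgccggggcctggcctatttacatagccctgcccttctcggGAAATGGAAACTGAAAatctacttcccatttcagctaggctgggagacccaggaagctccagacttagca
Rsad2: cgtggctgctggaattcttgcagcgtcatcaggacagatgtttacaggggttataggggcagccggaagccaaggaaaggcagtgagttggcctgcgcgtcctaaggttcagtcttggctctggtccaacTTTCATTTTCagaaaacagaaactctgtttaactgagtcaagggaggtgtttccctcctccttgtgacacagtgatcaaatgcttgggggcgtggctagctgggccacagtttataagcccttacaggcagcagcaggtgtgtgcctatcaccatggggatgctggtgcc
The first base of the Rsad2 match lay at position -120 from the start, and the Oas1a matches lay closer to it.

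**Figure D5:**
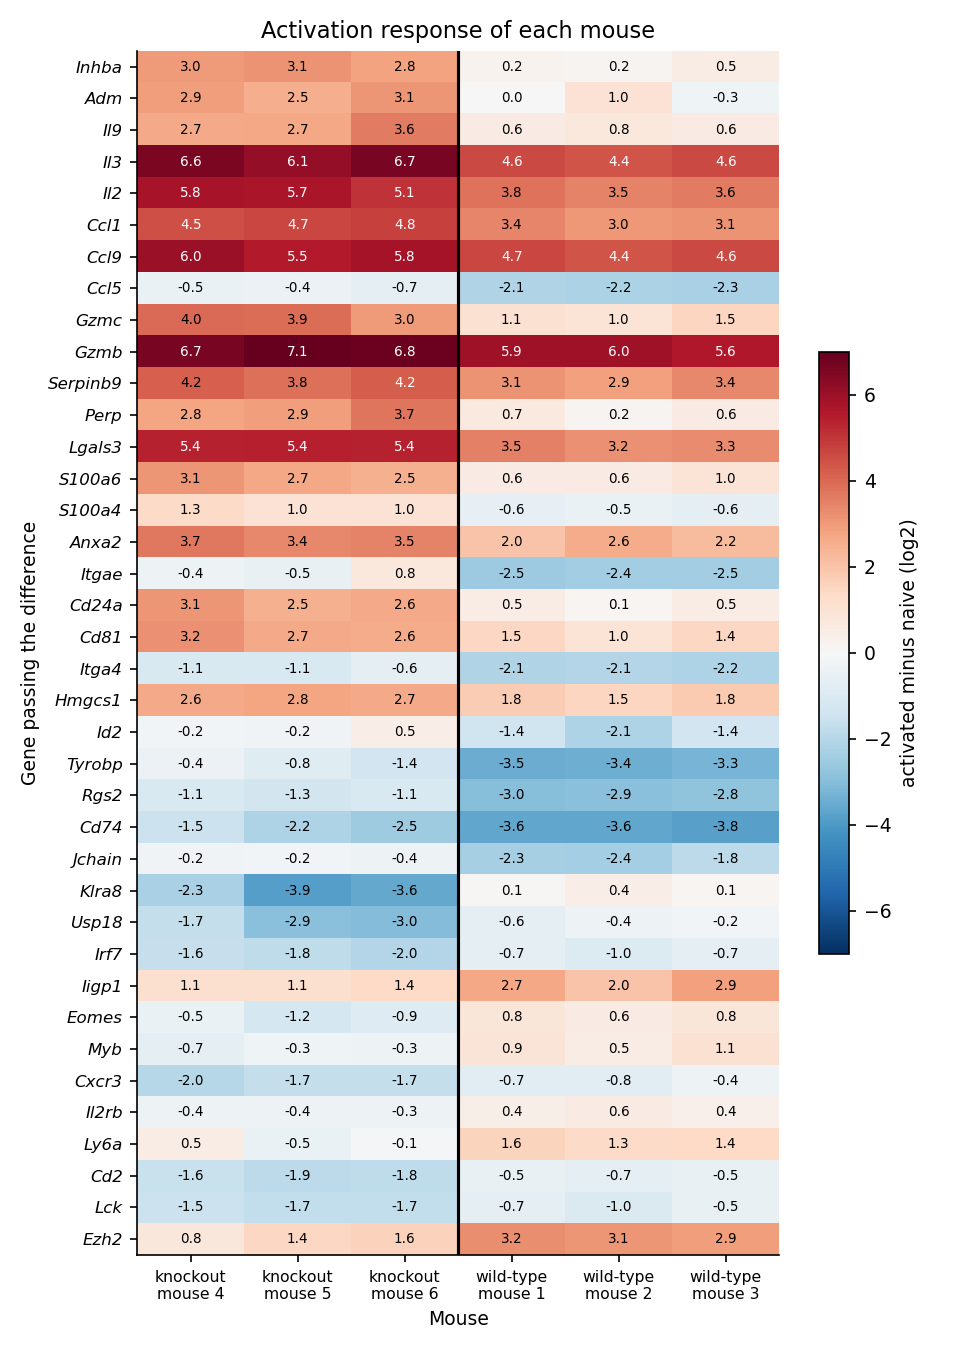
Activation response of each mouse (log2, colour scale) for 38 genes that passed, with knockout mice 4, 5 and 6 in the left columns and wild-type mice 1, 2 and 3 in the right columns. In each line of the plot the responses of the 3 knockout mice lie on one side of those of the 3 wild-type mice. The genes were chosen by that same difference, so the separation adds no independent evidence.

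Among 30 transcription factors of effector and memory T cells, 2 had a higher and 2 a lower response, with a median of 0.04. The shares of all genes were 0.606% higher and 0.262% lower. Eomes encodes eomesodermin, a T-box factor of memory CD8 cells and natural killer (NK) cells, and read 3.73, 3.86 and 4.01 in activated knockout cells and 4.19, 5.10 and 4.93 in naive knockout cells, against 2.81, 2.76 and 3.02 in activated wild-type cells and 1.98, 2.17 and 2.18 in naive wild-type cells. Knockout arrays were above wild type in both states, with an effect of 1.01 after activation and 2.63 before it. Eomes fell by 0.87 in knockout cells and rose by 0.75 in wild-type cells, a difference of -1.62 ± 0.25 (SE, adjusted p = 0.00381). A second Eomes probe set read -1.03 and did not pass. Myb, the gene of a factor that maintains progenitor and memory T cells, read 4.07, 4.44 and 4.37 in activated knockout cells and 4.72, 4.76 and 4.70 in naive knockout cells, against 4.00, 3.53 and 3.99 in activated wild-type cells and 3.12, 3.02 and 2.94 in naive wild-type cells. The naive knockout arrays were the highest, the activated groups lay closer, and the difference was -1.25 ± 0.18 (SE, adjusted p = 0.00201), with 2 further Myb probe sets passing at -1.45 and -1.34.

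Id2 encodes an inhibitor of E-protein factors that favours effector cells, and read 3.90, 4.01 and 4.23 in activated knockout cells and 4.09, 4.26 and 3.78 in naive knockout cells, against 3.59, 3.01 and 3.49 in activated wild-type cells and 4.96, 5.15 and 4.85 in naive wild-type cells. It fell by 1.62 in wild-type cells and had a response of 0.01 in knockout cells, a difference of 1.63 ± 0.22 (SE, adjusted p = 0.00114). Bhlhe40, the gene of a factor that supports cytokine production, differed by 0.92 ± 0.19 (SE, adjusted p = 0.0388), lost in 10 of the 12 fits (highest adjusted p = 0.107) and with the mouse as a block (adjusted p = 0.107). The T-box factor gene Tbx21 rose by 1.23 in knockout and 1.39 in wild-type cells (adjusted p = 0.788). Tcf7, a factor gene of naive and memory cells, fell in both genotypes, with responses of -1.56 in knockout and -1.66 in wild-type cells (adjusted p = 0.903), and Lef1, its relative, fell in both genotypes, with responses of -1.56 in knockout and -1.60 in wild-type cells (adjusted p = 0.979). Irf4, induced by receptor signals, rose by 2.47 in knockout and 2.83 in wild-type cells (adjusted p = 0.691). Differences for Prdm1, Id3, Bach2 and Batf were -0.06, -0.09, 0.16 and 0.03, and none passed.

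Surface receptors of memory cells were divided. Of 26 naive and memory surface genes, 3 were higher (Itgae, Itga4 and Cxcr6) and 3 lower (Cxcr3, Il2rb and Itgal), with a median of 0.08. Il2rb, the beta chain shared by the interleukin-2 and interleukin-15 receptors, read 5.79, 5.79 and 5.81 in activated knockout cells and 6.16, 6.14 and 6.17 in naive knockout cells, against 6.01, 6.17 and 5.97 in activated wild-type cells and 5.59, 5.59 and 5.61 in naive wild-type cells. It fell by 0.36 in knockout and rose by 0.45 in wild-type cells, a difference of -0.82 ± 0.11 (SE, adjusted p = 0.000993), and a second probe set passed at -1.35. Cxcr3, the receptor for interferon-induced chemokines, fell in both genotypes, with responses of -1.79 in knockout and -0.64 in wild-type cells, a difference of -1.15 ± 0.15 (SE, adjusted p = 0.00114). Cxcr6 differed by 0.62 ± 0.13 (SE, adjusted p = 0.0317) and was lost in 8 of the 12 fits (highest adjusted p = 0.0843) and with the mouse as a block (adjusted p = 0.078). Ly6a, the gene of the memory-cell and interferon-responsive antigen Sca-1, rose by 1.42 in wild-type cells and had a response of -0.01 in knockout cells, a difference of -1.44 ± 0.21 (SE, adjusted p = 0.00196). The adhesion receptor gene Cd44 (0.40, adjusted p = 0.596), the interleukin-7 receptor gene Il7r (0.65, adjusted p = 0.0843), the homing receptor gene Ccr7 (0.01, adjusted p = 0.995) and the early activation gene Cd69 (-0.37, adjusted p = 0.674) did not pass.

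The largest difference of all 182 belonged to a killer-cell receptor. Klra8 encodes Ly49H, an activating receptor of NK cells that recognises a viral protein, and read 0.74, 0.78 and 0.66 in activated knockout cells and 3.03, 4.63 and 4.24 in naive knockout cells, against 0.67, 0.88 and 0.69 in activated wild-type cells and 0.60, 0.44 and 0.56 in naive wild-type cells. Naive knockout arrays stood alone at the top, and mouse 4 read lower than mice 5 and 6 there. Klra8 fell by 3.24 in knockout cells and had a response of 0.21 in wild-type cells, a difference of -3.46 ± 0.38 (SE, adjusted p = 0.00018), which is an 11-fold lower response in knockout cells. The file notes possible cross-hybridisation for this probe set, and the Ly49 genes are near-identical copies, so which of them the signal comes from is uncertain. A probe set shared by Klra3 and Klra9 moved alike, with a difference of -2.69 (adjusted p = 0.00541).

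Tyrobp, the gene of the DAP12 adaptor that activating killer receptors use and that myeloid cells express, moved the opposite way. It read 1.05, 1.19 and 0.94 in activated knockout cells and 1.47, 2.03 and 2.29 in naive knockout cells, against 1.01, 1.01 and 1.07 in activated wild-type cells and 4.50, 4.42 and 4.35 in naive wild-type cells. Naive wild-type arrays stood alone at the top, and the difference was 2.52 ± 0.21 (SE, adjusted p = 2.15e-05). Of 20 killer-cell receptors and adaptors 2 were higher, Tyrobp and Cd160, and 1 was lower, Klra8, with a median of 0.08. None of the 6 left without antisense-marked and cross-hybridising probe sets passed. Cd160, at 0.83 ± 0.16 (SE, adjusted p = 0.0206), was read from a probe set with an antisense mark, was lost in 5 of the 12 fits (highest adjusted p = 0.066), and read 0.50 (adjusted p = 0.295) from its next probe set. Among 17 NK-cell markers 1 was higher and 3 were lower (Klra8, Eomes and Il2rb), and their sum was 144 to 155 in activated knockout and 218 to 278 in naive knockout arrays, against 137 to 144 in activated wild-type and 199 to 212 in naive wild-type arrays. The part of NK cells in these values was not tested.

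Lyst, the gene of a lysosomal trafficking protein needed for granule release, differed by -1.79 ± 0.33 (SE, adjusted p = 0.0169). It did not pass without naive wild-type replicate 1, activated wild-type replicate 3 or naive knockout replicate 5 (highest adjusted p = 0.0557). Naive knockout mouse 4 read lowest of its group for Klra8, Usp18, Eomes and Lyst alike, at 3.03, 2.5, 4.19 and 3.11, and without that array 98 genes had a lower response in knockout cells, against 55 with it.

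The T-cell receptor list, which holds the receptor chains and the proteins that carry its first signals, had none of 24 genes higher and 3 lower, with a median of -0.19 and 2 to 4 lower genes over the fits without 1 array. Of the 14 left without antisense-marked and cross-hybridising probe sets 1 was lower, with a median of -0.08, and without moderated variances 1 of 24. After activation 5 of the 24 lay below wild type in knockout cells. Cd2, an adhesion and costimulation receptor, read 4.77, 4.52 and 4.59 in activated knockout cells and 6.32, 6.37 and 6.39 in naive knockout cells, against 5.60, 5.51 and 5.64 in activated wild-type cells and 6.11, 6.22 and 6.17 in naive wild-type cells. Activated knockout arrays were the lowest, and the difference was -1.15 ± 0.12 (SE, adjusted p = 0.000124). Lck, the kinase that starts receptor signalling, differed by -0.93 ± 0.15 (SE, adjusted p = 0.00524), but its probe set of largest variance read -0.54 (adjusted p = 0.408). Cd8a, the CD8 alpha chain, differed by -0.67 ± 0.13 (SE, adjusted p = 0.0216), lost in 6 of the 12 fits (highest adjusted p = 0.0657) and with the mouse as a block (adjusted p = 0.0749), and read -0.22 (adjusted p = 0.626) from another probe set. These 3 are also the lower members among 11 CD8 T-cell markers, whose median was -0.43 and of which 6 lay below wild type in activated knockout cells. The part of the lower marker sum of activated knockout arrays was not tested.

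Costimulatory and inhibitory receptors had 1 lower gene of 21 and none higher, with a median of -0.03. It was Icos, a costimulatory receptor of the CD28 family, which rose by 0.93 in wild-type cells and had a response of 0.03 in knockout cells. Its difference of -0.90 ± 0.17 (SE, adjusted p = 0.0171) was lost in 4 of the 12 fits (highest adjusted p = 0.0584). Bcl2, the survival gene, differed by -0.59 ± 0.11 (SE, adjusted p = 0.0205) as the single passing member of 17 BCL2 family and death receptor genes (median 0.05), lost in 6 of the 12 fits (highest adjusted p = 0.0626). Camk4, a calcium-dependent kinase gene, was the single passing member of 21 calcium and NFAT genes (median 0.10) at -0.89 (SE 0.20), with an adjusted p that rounds to 0.05. It was lost in 10 of the 12 fits (highest adjusted p = 0.132) and with the mouse as a block (adjusted p = 0.0702). Of 29 immediate early and stress genes, 2 were higher and none lower, with a median of 0.01: Atf3, a stress-induced factor gene, at 0.93 and Hspa1b, a heat-shock chaperone gene, at 1.43. They were lost in 9 and 8 of the 12 fits (highest adjusted p = 0.105 and 0.0837), and Atf3 with the mouse as a block (adjusted p = 0.0864), and the mean of the Hspa1b probe sets read 0.80 (adjusted p = 0.059).

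Antigen-presentation and antibody genes passed with a higher difference through a steeper fall in wild-type cells. Cd74, the invariant chain that guides MHC class II molecules, fell in both genotypes, with responses of -2.07 in knockout and -3.67 in wild-type cells, a difference of 1.60 ± 0.20 (SE, adjusted p = 0.000612). H2-Ab1 and H2-Eb1, MHC class II chains, differed by 1.49 ± 0.27 (SE, adjusted p = 0.0128) and 1.36 ± 0.17 (SE, adjusted p = 0.000829), and H2-DMb2, which helps load them, by 0.86 ± 0.13 (SE, adjusted p = 0.00395), although another H2-DMb2 probe set read 0.82 (adjusted p = 0.114). Those are 4 of 20 B-cell markers, against 0.606% of all genes. No member was lower, the median was 0.24, and 4 were higher in each fit without 1 array. None of the 9 left without antisense-marked and cross-hybridising probe sets passed, with a median of 0.00, and without moderated variances 2 of 20 did. Jchain, the joining chain of secreted antibodies, read 0.81, 0.92 and 0.51 in activated knockout cells and 1.06, 1.11 and 0.89 in naive knockout cells, against 0.81, 0.71 and 0.90 in activated wild-type cells and 3.11, 3.09 and 2.70 in naive wild-type cells. Naive wild-type arrays alone lay above the floor, and the difference of 1.89 ± 0.18 (SE, adjusted p = 5.03e-05) made it the 1 passing member of 10 plasma-cell markers (median 0.15). Igkv1-117, an antibody light-chain segment, read 0.69, 0.71 and 0.54 in activated knockout cells and 1.21, 1.29 and 1.26 in naive knockout cells, against 0.74, 0.61 and 0.72 in activated wild-type cells and 3.12, 3.58 and 3.52 in naive wild-type cells. It too was raised in naive wild-type arrays above all others, with a difference of 2.11 ± 0.15 (SE, adjusted p = 6.83e-06), while the probe set left after removing cross-hybridising ones read 0.18 (adjusted p = 0.664).

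Cst3, the cystatin C gene and the 1 passing member of 12 dendritic-cell markers (median 0.17), differed by 1.93 ± 0.29 (SE, adjusted p = 0.00359). S100a9 and Lyz1, granulocyte and macrophage genes, were the 2 passing members of 23 myeloid markers (median 0.11), at 1.03 and 0.77. Each was lost in 10 of the 12 fits (highest adjusted p = 0.112 and 0.121) and with the mouse as a block (adjusted p = 0.0507 and 0.0568). These genes are members of the marker lists whose sums, given above, were highest in naive wild-type arrays. No member passed among 12 CD4 and regulatory T-cell markers (median -0.11), 6 gamma-delta T-cell markers (-0.04), 13 erythroid and platelet markers (0.01) and 16 stromal and endothelial markers (0.05). Apart from those 13, 3 probe sets that each match several haemoglobin genes, the main transcripts of red cells, had a higher difference, 1.43 to 1.69, and were lower in naive knockout than in naive wild-type arrays, with effects of -1.94 to -1.46. Their part in the other values was not tested. With antisense-marked and cross-hybridising probe sets left out, 94 genes passed of 14121 tested, 58 of them higher and 36 lower.

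Genes of other functions stood out by size or by the form of their response. Basp1, a membrane signalling protein gene, read 3.37, 3.30 and 3.19 in activated knockout cells and 1.42, 1.14 and 1.4 in naive knockout cells, against 1.72, 1.73 and 2.21 in activated wild-type cells and 1.77, 1.69 and 1.88 in naive wild-type cells. Its response was 1.97 in knockout cells, which started lower, and 0.11 in wild-type cells, a difference of 1.86 ± 0.18 (SE, adjusted p = 5.35e-05). Rgs2, which restrains G-protein signals, fell in both genotypes, with responses of -1.15 in knockout and -2.92 in wild-type cells, a difference of 1.76 ± 0.16 (SE, adjusted p = 3.29e-05). Spry2, an inhibitor of growth-factor signalling through MAP kinase, differed by 1.14 ± 0.12 (SE, adjusted p = 0.000124). Arsb, a lysosomal sulfatase gene, had a difference of -1.18 ± 0.20 (SE, adjusted p = 0.00751). Mtss1 rose by 0.60 in knockout and fell by 0.28 in wild-type cells, a difference of 0.88 ± 0.14 (SE, adjusted p = 0.00371), although the mean of its probe sets read 0.39 (adjusted p = 0.0817). Nr1d2, a clock repressor gene, differed by -0.79 ± 0.14 (SE, adjusted p = 0.0154) and did not pass without activated wild-type replicate 2 (adjusted p = 0.0514).

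Polycomb genes and the developmental regulators they silence in most tissues held few or no genes that passed. Over all genes 0.868% passed, so a count of 0 in lists of this size lies near the background. Among 12 PRC2 subunits and accessory proteins Ezh2 alone passed (median -0.07). Without moderated variances none of the 12 passed, nor any of the 9 left without antisense-marked and cross-hybridising probe sets. None of 19 PRC1 subunits passed (median 0.00), although 4 had an unadjusted p under 0.05, against 9.81% of all genes. With antisense-marked and cross-hybridising probe sets left out, 1 of 14 PRC1 subunits was higher. The PRC1 gene Bmi1 had the difference farthest from 0 (0.66, adjusted p = 0.432). None of 59 developmental regulators under Polycomb control passed, and 2 had an unadjusted p under 0.05. The median was 0.02, and the differences ran between -0.45 (Tbx3) and 0.29 (Hoxb9). By their mean only 9 of the 59 lay above the median of all values, and folds are compressed near the floor. None of 32 histone methylation and demethylation enzymes passed either, with a median of -0.03. Of the 32, 8 had an unadjusted p under 0.05, against 9.81% of all genes.

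The growth programme of activation rose in both genotypes with few differences. All but 1 of 30 mitosis genes rose in each genotype, and 25 of the 30 differences lay above 0, with a median of 0.21. One member passed, the centromere gene Cenpa at 0.99 ± 0.19 (SE, adjusted p = 0.0185), lost in 5 of the 12 fits (highest adjusted p = 0.0611) and reading 0.38 (adjusted p = 0.149) for the mean of its probe sets. The proliferation marker Mki67 rose by 4.00 in knockout and 3.13 in wild-type cells, a difference of 0.87 ± 0.21 (SE, adjusted p = 0.0787) that passed with the mouse as a block (adjusted p = 0.0211). DNA replication genes rose in 30 of 36 cases in knockout and 32 of 36 in wild-type cells. None of the 36 differences passed, with a median of -0.03 and 3 at an unadjusted p under 0.05, against 9.81% of all genes. Ribosome biogenesis genes, of which 26 of 28 rose in knockout cells and 28 of 28 in wild-type cells, had a median of -0.15 and no passing member, with Nolc1 farthest from 0 (-0.63, adjusted p = 0.103). Myc rose by 1.28 in knockout and 1.41 in wild-type cells (adjusted p = 0.82).

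No member passed among 26 E2F factors, pocket proteins and cyclins (median 0.04), 25 cytosolic ribosomal proteins (-0.03), 18 glycolysis and lactate genes (-0.04), 23 respiratory chain genes (-0.03) and 12 NF-kappaB subunits and inhibitors (0.09). At an unadjusted p under 0.05 these lists held 5, 3, 3, 2 and 2 genes in that order, against 9.81% of all genes. Of 27 amino acid, one-carbon and ATF4 genes, the serine synthesis gene Psat1 alone passed (median -0.18), at -0.72 ± 0.16 (SE, adjusted p = 0.0475), lost in 9 of the 12 fits (highest adjusted p = 0.13) and with the mouse as a block (adjusted p = 0.0595).

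The authors' deposited table of comparisons holds a p for the same interaction, and all 182 genes had one under 0.01, the threshold printed in that table, which was made from the same arrays.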

How the data were processed

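The log2 expression values of 45141 probe sets on 12 arrays are the authors' deposited series matrix, made by RMA per the submitters' processing notes and with base-2 logarithms per the file headers; no version is given. The authors' deposited workbook also holds the ratio of the fold changes and an interaction p-value from a two-way analysis of variance per probe set, per the file headers, and that p was used only for the count printed from it. No genome build is named for the array annotation, so genes are given by symbol alone.

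After 104 control probe sets, 5633 with no gene and 860 with several were set aside, each gene was represented by whichever of its own probe sets was brightest on average across the arrays, and 20962 genes remained. For 9714 of these there was more than 1 probe set to choose from. Symbols were brought up to date through RefSeq for 18394 genes and kept as deposited for 2568. The annotation marks 897 of the chosen probe sets as antisense and notes possible cross-hybridisation for 9753. One model with 4 group means was fitted to all 12 arrays with limma 3.58.1 in R 4.3.3, and the interaction, both responses and both genotype effects were taken as contrasts with moderated variances. Python 3.11.15, pandas 2.3.3, numpy 2.4.6 and matplotlib 3.10.9 made the tables and plots. The test was run on simulated data with known differences. The number of arrays, 3 a group, limits the precision.

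The comparison, its gene lists and the tests were chosen with earlier results of these data known. Genes are named by rule: a set panel, the 12 largest differences in each direction, up to 4 passing members of a list (all where 5 or fewer pass, the 2 farthest from 0 where none does), and the 3 smallest p values of each combination of calls. Csf2, Tnfsf11, Lgals1, S100a10, S100a11, Anxa5, Cd9, Itgal, Cxcr6, Rsad2, Zbp1, Oas2, Hoxb9, Pde2a, Fam3c, Ehd1, Chst11 and 9330161A08Rik were named beyond it, after their values were seen. A few genes that the rule names are not reported here. Marker sums are sums of 2 to the power of the log2 value. Same-numbered arrays come from the same mouse. The correlations of their deviations from the group means were 0.04, -0.10 and 0.05 for mice 1 to 3 and 0.13, -0.05 and 0.07 for mice 4 to 6. The reported fit has no block, and the mouse as a block was an alternative. Other alternatives were a random block, trended or unmoderated variances, other choices of probe set, a filter on dim genes, 2 other scalings, and each array left out in turn.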

Additional observations from a re-analysis of the deposited data

Results flagged for a closer look

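The difference of the activation response is itself a test between the genotypes, and the 182 genes that passed it are listed here for that reason. In 5 named genes the response ran in opposite directions, with every knockout mouse moving one way and every wild-type mouse the other: S100a4 (1.69) and Mtss1 (0.88) rose in knockout and fell in wild-type cells, while Il2rb (-0.82), Myb (-1.25) and Eomes (-1.62) fell in knockout and rose in wild-type cells.

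Probe sets that match several genes were outside the gene-level comparison. Of 860 such probe sets, 20 passed the same test within their own set, 16 higher and 4 lower. The 3 haemoglobin probe sets among them differed by 1.43 to 1.69, and the 9 immunoglobulin probe sets by 0.75 to 3.81. The probe set shared by Klra3 and Klra9 differed by -2.69.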

How the results depend on the processing

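With the mouse as a block, 179 genes passed (124 higher, 55 lower), 147 of them among the 182. Of the genes named by the rule, 11 lost their call with it, and Mki67 and Izumo1r came past the threshold. Lost calls are given beside some of the genes above, and Pde2a lost its call too (adjusted p = 0.0695). Trended variances gave 210 genes, the random block 197, the mean of probe sets 196, the most variable probe set 185, brighter genes alone 192, centring 194 and quantile normalization 195. Unmoderated variances and the removal of uncertain probe sets moved the counts by more than 1.5 times. Without moderated variances 52 genes passed (40 higher, 12 lower), with 71 for the knockout effect in activated and 56 in naive cells. Without antisense-marked and cross-hybridising probe sets, which leaves 14121 genes to test, 94 passed (58 higher, 36 lower), with 3088 for the knockout response, 3047 for the wild-type response, 161 for the knockout effect in activated and 127 in naive cells, and Sesn1 turned to -0.15 through another probe set. Of the genes named by the rule, 12 lost their call with the mean of probe sets, 8 with the most variable one, 13 without uncertain probe sets and 43 without moderation. Named genes with no probe set left could not be tested without uncertain ones. In that setting 53 stayed the same, against 113 with the mean of probe sets.

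Leaving out 1 array gave 122 to 234 genes, 91 to 136 higher and 25 to 98 lower. The lower count moved by more than 1.5 times for 8 of the 12 arrays: 98 without naive knockout replicate 4, 25 without naive knockout replicate 5, 36 without activated knockout replicate 5, 30, 27 and 32 without activated wild-type replicates 1, 2 and 3, and 31 without naive wild-type replicate 1 or 3. The knockout response held 4963 to 5557 genes and the wild-type response 4639 to 5924. The knockout effect held 147 to 316 genes in activated cells, with 182, 147 and 150 without activated wild-type replicates 1, 2 and 3, and 139 to 290 in naive cells, with 139 and 148 without naive wild-type replicates 1 and 3. Fits without an array have fewer samples by construction; beyond that the causes were not tested. Values near the floor limit the folds of dim genes.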
